A study of Mus musculus with 9 samples.

Results

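A stretch of mouse chromosome 10 that is dense in DPPA4 peaks begins at 79000000 of the mm9 assembly and spans 2.5 Mb. Its members were all peaks of the 6 deposited lists that overlap this stretch, 2233 of the 229345 peaks in all, and they were also counted in 25 windows of 100 kb. The remaining 9255 peaks of chromosome 10 served for comparison. The stretch was chosen by its number of peaks in these lists, so its density is given as a description and carries no test.

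The lists come from chromatin immunoprecipitation and sequencing (ChIP-seq) with an antibody to DPPA4 in 3 mouse cell lines, with 2 immunoprecipitated libraries a line. E14 are embryonic stem cells, grown without feeders on gelatin in 2i medium with serum. P19 are embryonal carcinoma cells and 3T3 are fibroblasts that carried ectopic Dppa4, both grown in DMEM with serum. The labels do not say how Dppa4 was placed in the 3T3 cells, and an immunoprecipitation without DPPA4 in the cells was not analysed here. The labels do not say whether separate cultures lie behind the libraries of a line, so errors measure only the spread between these libraries.

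DPPA4 (developmental pluripotency associated 4) is a small nuclear protein with a SAP domain, a fold that binds DNA. It pairs with its relative DPPA2, is made in pluripotent and germ cells, and is known for binding CpG-rich promoters, among them promoters of genes that are switched on later in development. Fibroblasts normally lack it.

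The block of mouse chromosome 10 that holds the stretch is known to be gene-rich. The kinase gene Stk11, the transcription factor gene Tcf3, the histone methyltransferase gene Dot1l and the stress response gene Gadd45b are known to lie in it. In the RefSeq table of another assembly (GRCm38), 112 protein-coding genes stand in order from Cdc34 to Gna11, 11.2% of the 1001 protein-coding genes of chromosome 10. Only names and order were read from that table. No peak was assigned to a gene, and no sequence of the mm9 assembly was used here.

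DPPA4 peaks were packed into the stretch in all 3 lines. The E14 libraries held 550 and 381 peaks in it, the P19 libraries 387 and 448, and the 3T3 libraries 214 and 253. The 3T3 counts lay below those of every E14 and P19 library. That is the order of the list lengths too, since the 3T3 lists held 15462 and 17540 peaks against 40011 to 61693 in the others. Per Mb, the stretch held 93.4 ± 11.0 peaks in 3T3, 167.0 ± 17.3 in P19 and 186.2 ± 47.8 in E14 (SD, n = 2). The rest of chromosome 10 held 5.56 ± 0.205, 14.1 ± 2.76 and 17.6 ± 4.01 peaks per Mb in the same order (SD, n = 2). The density was thus 16.8 ± 1.37 times that of the rest of the chromosome in 3T3, 12.0 ± 1.13 times in P19 and 10.6 ± 0.312 times in E14 (SD, n = 2).

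No other place in the genome was as dense over a run of this length. A frame of 2.5 Mb was moved in steps of 100 kb over the autosomes and the sex chromosomes, 25920 positions in all. Its highest count fell on chromosome 10 in 6 of 6 libraries, in a frame that began between 78700001 and 79000001. In the 3T3 libraries no position exceeded the stretch, and in the E14 and P19 libraries the 3 or 4 positions that did so overlapped it. Away from the stretch, the fullest frame held 142 and 139 peaks in the 3T3 libraries, 298 and 343 in P19, and 445 and 273 in E14. On the remainder of chromosome 10 the fullest frame began between 125900001 and 126400001 in every library and held from 68 peaks (3T3 replicate 1) to 227 (E14 replicate 1).

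The peaks filled the first 21 windows and thinned out after them. From the start to 81.1 Mb every window held peaks in every library, with a median per window of 10 and 11 in the 3T3 libraries, 16 and 18 in P19, and 26 and 16 in E14. The remaining 4 windows held between 3 and 10 peaks in all per library. At the start the counts rose in steps. The last window before the start held 15 peaks over the 6 lists, and the windows after it held 55, 87, 126, 138 and 180 in turn. At 81.1 Mb the count fell from 80 to 18 between neighbouring windows. The 500 kb before the start held 1 and 2 peaks in 3T3, 7 and 8 in P19, and 10 and 9 in E14. The first 500 kb after it held 50 and 58 in 3T3, 117 and 122 in P19, and 141 and 98 in E14. No peak crossed either border in any library. The last peak outside at the lower border scored between 51.0 and 303.7, and the first inside between 50.9 and 1143. At the upper border the last peak inside scored between 55.1 and 292.6, and the first outside between 60.3 and 212.3. The scores are the authors', given for each peak by the peak caller.

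**Figure D1:**
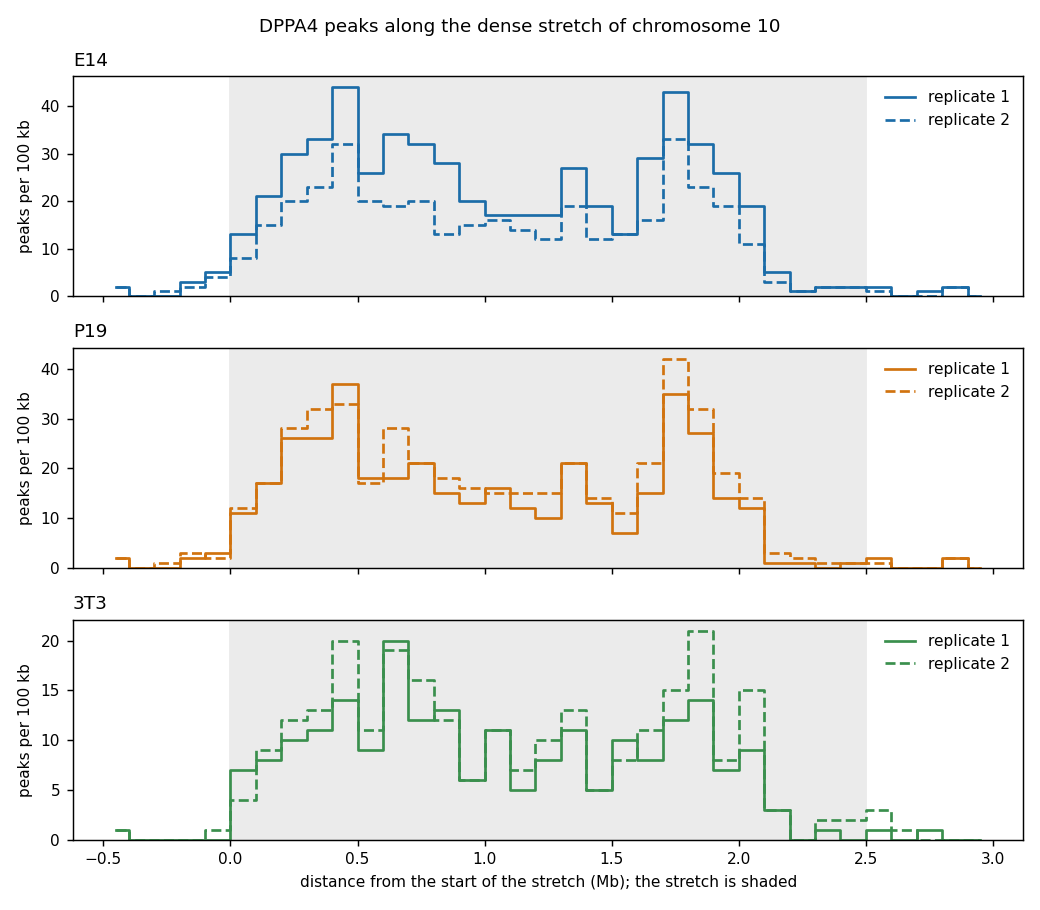
Peaks per 100 kb window (vertical axis, scaled separately for each line) against distance from the start of the stretch in Mb, with the stretch shaded. In each library the counts rise at the start of the shaded part and fall to 5 peaks or fewer per window after 2.1 Mb.

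The fullest windows were shared by E14 and P19, and partly by 3T3. The window from 79.4 to 79.5 Mb took the largest mean share of the lists, with 14 and 20 peaks in 3T3, 37 and 33 in P19, and 44 and 32 in E14. The window from 80.7 to 80.8 Mb came next, with 12 and 15 peaks in 3T3, 35 and 42 in P19, and 43 and 33 in E14. No window held more peaks in replicate 2 of E14 or of P19. The window from 80.8 to 80.9 Mb was the fullest of 3T3 replicate 2, with 21 peaks there and 14 in 3T3 replicate 1. The window from 79.6 to 79.7 Mb was the fullest of 3T3 replicate 1, with 20 peaks there and 19 in 3T3 replicate 2. The fifth by mean share, from 79.3 to 79.4 Mb, held 11 and 13 peaks in 3T3, 26 and 32 in P19, and 33 and 23 in E14. The lowest shares were at 81.2 to 81.3 Mb, where 3T3 had no peak, and in the last 2 windows, from 81.3 Mb on, with at most 2 peaks in any library. Over the 25 windows, the rank correlation of counts was 0.90 to 0.95 within a line, 0.93 to 0.97 between E14 and P19 libraries, 0.77 to 0.88 between E14 and 3T3, and 0.80 to 0.85 between P19 and 3T3. Within the 21 full windows alone, it was 0.84 to 0.91, 0.89 to 0.96, 0.60 to 0.79 and 0.66 to 0.75. The windows are neighbours on 1 chromosome and no p is given.

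The stretch took a larger part of the 3T3 lists than of the E14 and P19 lists. It held 0.892% and 0.877% of the peaks of the E14 libraries, 0.967% and 0.875% of those of the P19 libraries, and 1.38% and 1.44% of those of the 3T3 libraries. Both 3T3 values lay above all 4 others, while the E14 and P19 values overlapped. The Wilson 95% interval was 1.21 to 1.58% for 3T3 replicate 1 and 0.876 to 1.07% for P19 replicate 1, the closest library of another line, and it covers counting error only. The 3T3 mean was 1.60-fold the E14 mean and 1.53-fold the P19 mean. Peak counts of these lists chose the stretch, so its shares are given as a description, with no test.

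On the rest of chromosome 10 the lines took like shares. They were 4.12% and 4.22% in the E14 libraries, 3.77% and 3.89% in P19, and 4.35% and 4.04% in 3T3, and the 3T3 mean was 1.01-fold the E14 mean and 1.10-fold the P19 mean. As a share of the peaks of chromosome 10 alone, the stretch took 24.1% and 26.3% in 3T3, 20.4% and 18.4% in P19, and 17.8% and 17.2% in E14. The list length matters for the counts. With every list cut to its 15462 best-scoring peaks, the stretch held 214 and 213 peaks in 3T3, 158 and 150 in P19, and 140 and 148 in E14. The 3T3 libraries, lowest with the full lists, were then the highest.

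**Figure D2:**
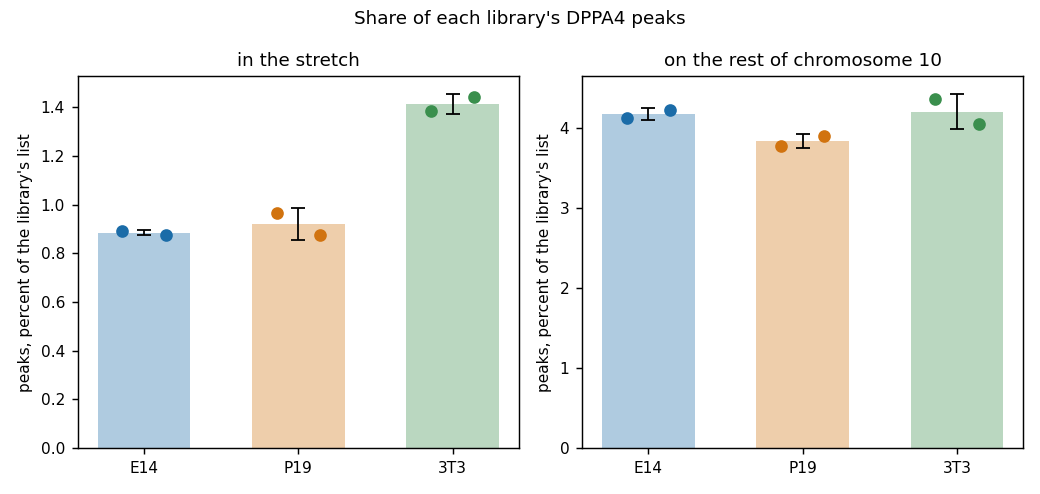
Peaks in the stretch (left) and on the rest of chromosome 10 (right) as a percent of the library's list (vertical axes from 0), with bars at the mean, error bars of 1 SD and a point for each of the 2 libraries. Both 3T3 libraries, at 1.38% and 1.44%, lie above the E14 and P19 libraries on the left, and the lines lie close together on the right.

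Other parts of the genome gave larger shifts towards 3T3 than this one. In a grid of 2.5 Mb bins, both 3T3 shares lay above all E14 and P19 shares in 20.7% of 1056 bins, the stretch among them. Among the 789 bins with at least 100 peaks over the 6 lists, the ratio of the 3T3 share to the E14 share had a median of 1.00, and 46 bins exceeded the 1.60 of the stretch. For 3T3 over P19, 66 bins exceeded its 1.53. Of the 40 such bins on chromosome 10, 2 exceeded it for E14 and 6 for P19. The next fullest bin of the genome, on chromosome 8 from 124000001 to 126500000, had ratios of 1.3 and 1.57. A further full bin, on chromosome 5 from 114000001 to 116500000, had ratios of 0.584 and 0.601, so full bins lay on both sides of an equal share.

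The surplus of 3T3 was spread over most windows of the stretch. A window was called for a line when both of its libraries had a larger share of their list there than both libraries of the other line. The 3T3 shares lay above the E14 shares in 21 of 25 windows (84.0%), against 23.1% of all windows of the genome. They lay above the P19 shares in 18 (72.0%), against 23.1%. Sparse windows with few peaks make up most of that background. Among the 556 windows of the genome with at least 50 peaks over the 6 lists, 40.5% were called for 3T3 over E14 and 33.3% for 3T3 over P19, while the stretch gave 19 and 16 of its 21 such windows. E14 was above 3T3 in 1 window (background 43.4%) and so was P19 (40.4%), in both cases the nearly empty one from 81.2 to 81.3 Mb. Among the 21 windows with at least 50 peaks, 0 were called for E14 over 3T3 (background 30.2%) and 0 for P19 over 3T3 (32.2%). With lists of equal length the count for 3T3 over E14 was 13 windows, against 20% of all windows, and that for 3T3 over P19 was 16, against 22.6%. Only 28 windows of the genome then held at least 50 peaks. Of these, 12 (42.9%) were called for 3T3 over E14 and 11 (39.3%) for 3T3 over P19. The stretch gave 5 of its 8 such windows in both comparisons, a smaller excess on few windows. These 8 are among the 28, so the shares of the 28 include them.

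The difference in share was largest in the window from 79.6 to 79.7 Mb. It held 5.51 and 4.37 of every 10000 peaks of the E14 libraries, 4.50 and 5.47 of those of P19, and 12.9 and 10.8 of those of 3T3. The mean 3T3 share was 2.40-fold that of E14 and 2.38-fold that of P19, and the 3T3 values stood clear of the other 4. By fold, the window from 81.0 to 81.1 Mb was further apart, with 2.56-fold the share of E14 and 2.51-fold that of P19 in 3T3 on 80 peaks in all. The sparse window after it had 2.43-fold and 4.37-fold. Counted in peaks, the window from 79.6 to 79.7 Mb held 20 and 19 in 3T3, 18 and 28 in P19, and 34 and 19 in E14. Each of these E14 and P19 lists is longer than both 3T3 lists.

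**Figure D3:**
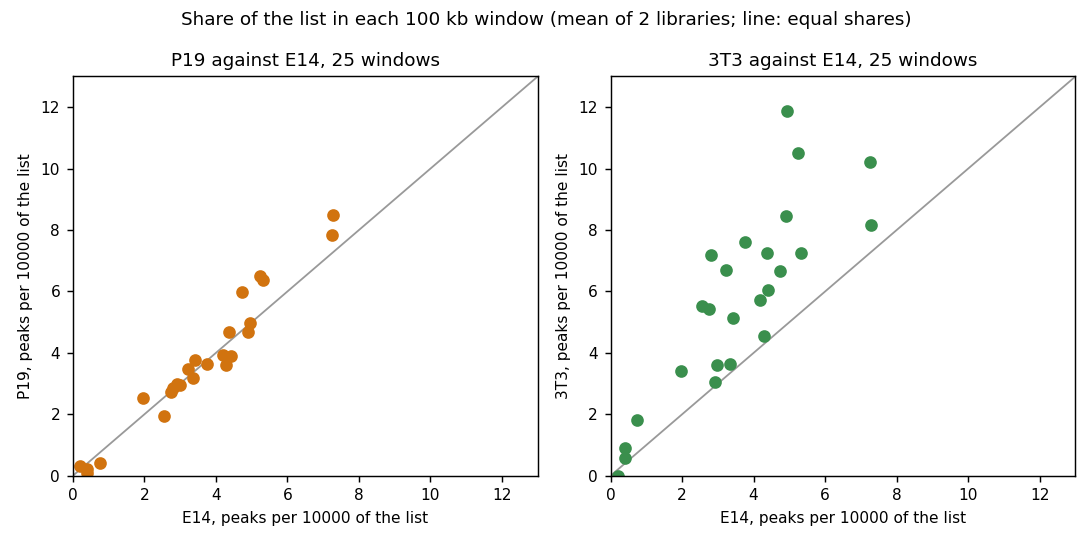
Mean share of the list in each of the 25 windows of the stretch, in peaks per 10000 of the list, for P19 (left) and 3T3 (right) on the vertical axis against E14 on the horizontal axis, with a line of equal shares. The P19 windows follow the line, and the 3T3 windows lie above it in all but the emptiest window.

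E14 and P19 differed little along the stretch. P19 lay above E14 in 6 windows (24.0%, against 15.6% of all windows) and E14 above P19 in 4 (16.0%, against 14.5%). The largest called difference towards P19 was at 80.8 to 80.9 Mb, with 6.75 and 6.25 of 10000 peaks in P19 against 5.19 and 5.29 in E14. The largest towards E14 was at 80.9 to 81.0 Mb, with 4.21 and 4.37 in E14 against 3.50 and 3.71 in P19. With a library left out, its partner alone stood for the line. The rule was then easier to pass, so counts could only stay or rise, and no background is given for it. Without E14 replicate 1, E14 replicate 2 or P19 replicate 1, E14 lay above P19 in 8, 8 and 11 windows, and without E14 replicate 1 or P19 replicate 2, P19 lay above E14 in 10 and 12. Over the 21 windows with at least 50 peaks, E14 lay above P19 in 1 window (background 13.7%) and P19 above E14 in 5 (30.2%).

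Peaks of the stretch lay a few kb apart. From one peak to the next, the median gap in 3T3 was 5525 and 4592 bp. In P19 it was 2549 and 2084 bp, and in E14 1864 and 2599 bp, against medians of 20208 bp (E14 replicate 1) to 80956 bp (3T3 replicate 2) on the rest of the chromosome. Peaks covered 4.54% and 10.3% of the stretch in 3T3, 10.5% and 14.3% in P19, and 13.9% and 16.8% in E14. Covered length followed peak width, which was larger in replicate 2 of each line.

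In E14 and P19 the peaks of the stretch were wider than those elsewhere on chromosome 10, while the 3T3 libraries went opposite ways. Median widths were 463 and 896 bp in E14 against 406 and 757 bp on the rest of the chromosome, and 512 and 605.5 bp in P19 against 444 and 528 bp. In 3T3 they were 431.5 and 872 bp against 416 and 893 bp. The mean difference was 98.0 ± 58.0 bp in E14, 72.8 ± 6.72 bp in P19 and -2.75 ± 25.8 bp in 3T3 (SD, n = 2). Cutting every list to its 15462 best peaks raised the differences in E14 and P19 to 329.2 and 222.2 bp and gave 8.75 bp in 3T3. With the best-scoring 50% of each list the 3T3 difference was 86.2 bp, so its direction depends on which peaks are counted.

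The median scores of the stretch lay near the middle of their lists, and the strongest peaks were more frequent in E14 and P19. Scores were read as percentile ranks within a list, 100 being the strongest peak, because the files name no scale for it. The median percentile in the stretch was 51.9 and 43.2 in 3T3, 52.9 and 52.5 in P19, and 51.8 and 53.0 in E14. On the rest of the chromosome it was 52.6 and 52.8 in 3T3, 50.3 and 50.9 in P19, and 49.8 and 50.7 in E14. The stretch thus lay 1.91 and 2.27 percentile points above the rest in E14, 2.62 and 1.63 above in P19, and had differences of -0.713 and -9.60 in 3T3. Cut to equal length, the P19 lists had a mean difference of -0.057 points and the E14 lists one of 9.00, so these small differences depend on the lists. Many peaks tied at a score of 3100, which was not the maximum. A peak of the stretch scored 3121.92 in P19 replicate 1 and stood at rank 79 of its list. Peaks that scored 3100 or above numbered 18 of 1399 and 22 of 2108 in the P19 lists, 3 of 198 and 4 of 140 in the E14 lists, and 0 of 1 and 0 of 16 in the 3T3 lists. As shares of the peaks of the stretch these are 4.65% and 4.91% in P19, against 3.05% and 4.11% on the rest of the chromosome, and 0.545% and 1.05% in E14, against 0.197% and 0.0545%. Peaks above percentile 90 of their list made up 12.2% and 16.3% of the stretch in E14, against 10.2% and 9.54% elsewhere on the chromosome, and 10.9% and 11.8% in P19, against 9.82% and 9.88%. In 3T3 they made up 10.3% and 9.09%, against 12.0% and 13.1%.

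In E14 and P19, peaks of the stretch recurred between the libraries of a line more often than elsewhere on the chromosome, by unequal margins. The 3T3 libraries went opposite ways. In E14, 74.2% and 89.0% of them overlapped a peak of the other library, against 66.2% and 85.7% on the rest of the chromosome. The shares were 89.1% and 71.2% in P19, against 88.1% and 63.5%. In 3T3 they were 87.9% and 63.2%, against 86.2% and 66.9%. In each line the longer list had the lower share. The part of the denser cover of the stretch in these shares was not tested.

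Regions were then compared between lines. Where peaks of both libraries of a line overlapped, their union was taken as a region held by that line, and overlapping regions of different lines were joined into a merged region. The stretch held 411 merged regions. The largest group, 150 regions (36.5%), was held by E14 and P19 without 3T3, against 40.2% of all regions of the genome. All 3 lines held 92 (22.4%, Wilson 95% interval 18.6 to 26.7), against 15.4% genome-wide and 15.2% (13.6 to 16.9) on the rest of chromosome 10. E14 alone held 70 (17.0%, against 22.0%), P19 alone 37 (9.00%, against 13.7%) and 3T3 alone 39 (9.49%, 7.02 to 12.7, against 4.37%). E14 with 3T3 held 13 (3.16%, against 3.27%) and P19 with 3T3 held 10 (2.43%, against 1.1%). Regions of at least 2 lines thus numbered 265 (64.5%), against 60.0% of all regions. Peaks covered 4.54% (3T3 replicate 1) to 16.8% (E14 replicate 2) of the stretch. On the rest of chromosome 10 they covered 0.277% and 1.24% in these libraries. How much of the sharing between lines comes with this denser cover was not tested.

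The regions held by 3T3 made up a larger share here than elsewhere. Of the 411 regions, 154 (37.5%, 32.9 to 42.2) were held by 3T3, against 24.2% of all regions and 25.4% (23.4 to 27.4) of those on the rest of chromosome 10. E14 held 79.1% of the regions, against 80.9% genome-wide, and P19 held 70.3%, against 70.4%. The regions lie side by side on 1 chromosome, so the intervals, which treat them as independent, are too narrow. With lists of equal length, 3T3 held 149 of the 233 regions of the stretch (63.9%, 57.6 to 69.8), against 47.6% of all regions and 47.5% (44.4 to 50.7) on the rest of chromosome 10. Of the 233, 3T3 alone held 83 (35.6%, against 26.6% of all regions under this setting). E14 and P19 together held 39 (16.7%, against 28.7%) and E14 alone 15 (6.44%, against 9.85%). When a library was left out, the overlap of both libraries could not be asked of its line. Every peak of the remaining library then counted as a region, so the following counts rest on a looser rule, and no background is given for them. Leaving out E14 replicate 2 gave E14 alone 190 regions and P19 alone 18. Without P19 replicate 1, E14 alone held 35, P19 alone 100, E14 with 3T3 7 and P19 with 3T3 17. Without P19 replicate 2, P19 alone held 65 and P19 with 3T3 16. Leaving out 3T3 replicate 1 or 2 gave 3T3 alone 73 and 62. Without E14 replicate 1 or 2, E14 with 3T3 held 21 and 24, and P19 with 3T3 held 6 in both cases.

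**Figure D4:**
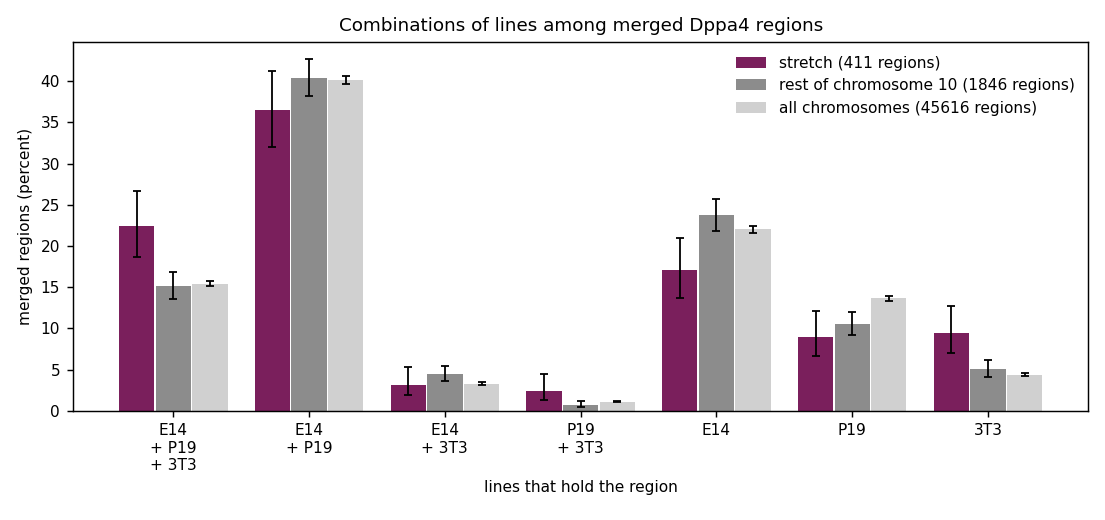
Percent of merged regions (vertical axis) in each combination of lines, for the 411 regions of the stretch, the 1846 of the rest of chromosome 10 and the 45616 of all chromosomes, with Wilson 95% intervals. The stretch has the higher bars for all 3 lines together (22.4%) and for 3T3 alone (9.49%) and the lower bar for E14 alone (17.0%).

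Seen from each line, 74.5% of the E14 regions of the stretch were also P19 regions and 83.7% of the P19 regions were also E14 regions. On the rest of chromosome 10 these shares were 66.4% and 83.2%. With 3T3, 32.3% of the E14 regions (27.5 to 37.6) and 35.3% of the P19 regions (30.0 to 41.0) were shared, against 23.4% (21.4 to 25.6) and 23.8% (21.5 to 26.2) elsewhere on the chromosome. In the opposite direction, 68.2% of the 3T3 regions (60.5 to 75.0) were held by E14, against 77.4% (73.3 to 80.9) elsewhere, and 66.2% (58.5 to 73.2) by P19, against 62.6% (58.1 to 66.9), so these intervals overlap. Regions lie closer together in the stretch than elsewhere, and the part of this in the shares was not tested.

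Single peaks lay in lines that did not hold the region. No 3T3 peak of either library lay in 104 of the 150 regions of E14 and P19 (69.3%), against 80.8% of such regions in the genome. Of the 39 regions of 3T3 alone, 24 (61.5%) had a peak in at least 1 E14 or P19 library, against 62.1%. No peak of another line was found in 25 of the 70 regions of E14 alone (35.7%, against 45.9%) and in 10 of the 37 of P19 alone (27%, against 42.8%). A peak in all 6 libraries was found in 94 of the 411 regions (22.9%, against 15.7%).

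The share of regions held by 3T3 ranged from 31.9% to 52.6% along the stretch, the highest over only 19 regions. In steps of 500 kb it was 37 of 103 regions (35.9%, 27.3 to 45.5), 40 of 101 (39.6%, 30.6 to 49.4), 31 of 75 (41.3%, 30.9 to 52.6), 36 of 113 (31.9%, 24.0 to 40.9) and 10 of 19 (52.6%, 31.7 to 72.7). The intervals overlap one another, but they treat neighbouring regions as independent, and the variation was not tested. E14 held between 75.2% and 84.2% of the regions in each step.

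Of the 5 regions held by all 3 lines with the highest mean percentile, 4 scored 3100 in both P19 libraries. Of these, 3 scored 3100 in at least 1 E14 library. The first lay from 79438017 to 79442781, spanned 4765 bp and scored 565 and 913 in 3T3 (percentiles 95.1 and 94.3) and 3100 in each of the 4 libraries of the other lines. The second, from 79197258 to 79201409, scored 3100 in the same 4 libraries, and 401 and 746 in 3T3. Both are broad, and they are the second and the third widest regions of the stretch. The third, from 80305851 to 80307648, scored 1094 and 986 in E14, 3100 in both P19 libraries, and 418 and 947 in 3T3. The fourth, from 80654034 to 80656504, scored 731 and 1197 in 3T3, 1837 and 2253 in P19, and 1559 and 687 in E14. The fifth, from 80296183 to 80299325, scored 3045 and 3100 in E14, 3100 in both P19 libraries, and 429 and 523 in 3T3. It is a near neighbour of the third. The widest region of the stretch, from 79773134 to 79780128, spanned 6995 bp, was covered by up to 2 peaks in each E14 and P19 library, all with a leading score of 3100, and was broken into 4 and 2 peaks scoring up to 179 and 510 in 3T3.

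The order of scores among these 92 regions was shared by E14 and P19 and was a different one in 3T3. Rank correlations of the percentile over the 92 regions were 0.89 to 0.94 within a line and 0.74 to 0.86 between E14 and P19 libraries. They were 0.03 to 0.19 between E14 and 3T3 and -0.05 to -0.02 between P19 and 3T3. The regions share 6 libraries and some values tie at the ceiling, so these are descriptions without a test. The strongest 3T3 region was named after its values were seen. It lay from 79818410 to 79821698 and scored 1459 and 2657 in 3T3, the percentiles 99.7 and 99.7 of those lists, against 624 and 399 in E14 (88.5 and 83.3) and 96.5 and 321 in P19 (38.5 and 73.2). The next, from 79957160 to 79959758, scored 904 and 2531 in 3T3, 788 and 445 in E14, and 400 and 482 in P19.

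**Figure D5:**
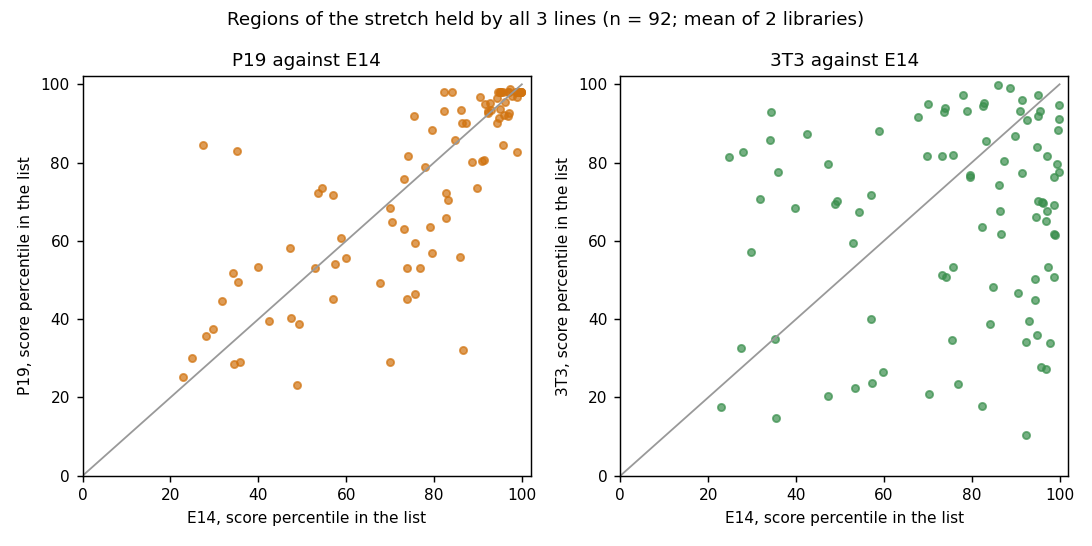
Mean score percentile within the list over the 2 libraries of a line, for the 92 regions of the stretch held by all 3 lines, with P19 (left) and 3T3 (right) on the vertical axis and E14 on the horizontal axis. The P19 points follow the line of equal percentiles, and the 3T3 points fill the plane.

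Strong regions of E14 and P19 without 3T3 were spread along the stretch. The first by mean percentile lay from 80100421 to 80103850 and scored 2884 and 2409 in E14 and 1125 and 2745 in P19. It had no peak in 3T3 replicate 1 and a peak scoring 51.5 in replicate 2, close to the lowest score listed. The second lay from 80960732 to 80962626, with 1274 and 896 in E14, 1764 and 2686 in P19, and 58.4 in 3T3 replicate 2. The others lay from 79797082 to 79800005, from 79219034 to 79220191 and from 81049465 to 81051027. None of these 5 regions had a peak in 3T3 replicate 1, and all had a weak one in 3T3 replicate 2 that scored between 51.5 and 96.1.

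Regions of a single line, or of 3T3 with 1 other line, had lower leading percentiles in E14 and P19 than those of all lines, and not in every case in 3T3. For 3T3 alone, the first lay from 79389249 to 79390931, with 251 and 742 in 3T3. A peak there scored 55.5 in P19 replicate 2, and the stronger of 2 peaks in E14 replicate 2 scored 106. The other region lay from 79131690 to 79132872, with 258 and 675 in 3T3. Its peaks in P19 replicate 1 and E14 replicate 2 scored 59.5 and 116. Both thus had weak peaks in 1 library of each other line and none in its partner.

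For P19 with 3T3, the first region lay from 79861219 to 79862667, with 224 and 139 in P19, 680 and 940 in 3T3, and a peak scoring 373 in E14 replicate 1 alone. Its 3T3 percentiles, 96.9 and 94.6, were above those of the leading region of all lines. The second lay from 79422563 to 79423585, with 333 and 447 in 3T3 and 96.9 and 131 in P19. E14 replicate 2 had a peak there scoring 94.4. For E14 with 3T3, the first lay from 80138339 to 80139868, with 226 and 108 in E14, 200 and 584 in 3T3 and 55.9 in P19 replicate 1. The next, from 79515716 to 79517316, had 123 and 113 in E14, 292 and 710 in 3T3 and a peak scoring 139 in P19 replicate 2.

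For P19 alone, the first region lay from 79857717 to 79858613, with 440 and 611 in P19, 52.6 in E14 replicate 2 and no 3T3 peak. The second lay from 80997570 to 80998521, with 373 and 620 in P19 and 66.8 in E14 replicate 1. For E14 alone, the first lay from 80008731 to 80009852, with 386 and 225 in E14. One 3T3 peak there, in replicate 1, scored 70.0 and one P19 peak, in replicate 2, scored 96.0. The second lay from 81150008 to 81150617, with 266 and 279 in E14 and a peak scoring 101 in P19 replicate 2.

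Across the stretch, regions of all 3 lines had the highest median percentile in each list and regions of a single line the lowest in E14 and P19. The median percentile of regions held by all 3 lines was 70.4 and 72.9 in 3T3, 79 and 83.4 in P19, and 84.3 and 82.5 in E14. For regions of E14 and P19 it was 71.1 and 60.6 in E14 and 61.5 and 70.6 in P19. In P19 with 3T3 it was 40.3 and 47.5 in P19 and 68.3 and 70.9 in 3T3, the latter close to that of all lines, over 10 regions. In E14 with 3T3 it was 50 and 37.1 in E14 and 47.9 and 63.6 in 3T3, over 13 regions. For regions of a single line it was 49.2 and 55.6 in 3T3, 37.7 and 44.7 in P19, and 43.0 and 29.4 in E14. Regions of all lines were also the wider ones, with a median of 1581 bp against 751.5 bp for E14 alone, 540 bp for P19 alone and 870 bp for 3T3 alone, and the part of width in the ranks was not tested. A merged region spans all the regions joined in it, so joining more lines can only widen it. The widths of these groups are therefore not like measures.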

How the data were processed

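DPPA4 ChIP-seq peak lists of 6 libraries were used. The 3 input libraries entered no comparison. Per the submitters' processing notes, the tools were CASAVA 1.8, bcl2fastq 1.8, BWA 0.7.13-r1126 and SAMtools 1.3, and the build was mm9. Peak names begin with MACS. The sources used here do not give its version, threshold or control. A list was deposited for each library, and the authors' deposited score of each peak has no named scale. Read depth is unknown. Coordinates are 1-based.

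Samples were grouped by cell line from their titles. Peaks overlapped when they shared at least 1 bp, and windows took peaks by midpoint. The length of chromosome 10 was taken as the span of its peaks. Regions to be named were, per combination of lines, those with the highest mean percentile over its lines (5 for all lines and for E14 with P19, 2 otherwise), with the 3 widest; windows were the 5 fullest and the 3 emptiest by mean share and the largest called difference. The members and lists were chosen with earlier results of these data known. Alternatives were the best-scoring 50% of each list, equal list lengths, joined peaks, other borders, covered length, a 50% overlap, shifted windows, a replicate block and leaving out libraries. The planned exact permutation test of the share of peaks is not reported, because peak counts chose the stretch. The count over the first 21 windows was added after the data were seen. The code ran in Python 3.11.15 with pandas 2.3.3, NumPy 2.4.6, Matplotlib 3.10.9 and SciPy 1.17.1, and was tested on simulated data. The simulated sites were spaced more widely than peaks of the stretch typically are, so the joining of regions was not tested at its density.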

Additional observations from a re-analysis of the deposited data

Results flagged for a closer look

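The score percentile of the stretch against the rest of chromosome 10 had opposite signs in the lines. It was higher in the stretch in both E14 and both P19 libraries and lower in both 3T3 libraries. The mean difference of E14 exceeded that of 3T3 by 7.25 percentile points and that of P19 exceeded it by 7.28 points. Most of the gap came from 3T3 replicate 2 (-9.60), since 3T3 replicate 1 gave -0.713. The difference between the lines was not tested. With lists of equal length the P19 difference was -0.057, that of 3T3 -1.85 and that of E14 9.00, so P19 then lay less than 2 points from 3T3.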

How the results depend on the processing

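The 3T3 share of peaks in the stretch exceeded the mean of the other lines by 0.511 percentage points. It stayed above it under every alternative run, by 0.374 (covered base pairs) to 0.583 points (joined peaks), and by 6.76 points as a share of the chromosome 10 peaks. The replicate block, in which lines are exchanged only among libraries of the same number, left the difference at 0.511. No shared origin of these numbers is labelled.

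Density over the rest of chromosome 10 stayed between 8.79 and 17.8 times in every line and setting. For E14 it was 11.0 with the best-scoring 50%, 8.79 with joined peaks, 11.1 with borders moved inward and 13.6 by covered base pairs. For P19 it was 13.1 with lists of equal length, 10.1 with joined peaks and 15.5 by covered base pairs. Leaving out libraries gave 10.3 to 10.8 in E14, 11.2 to 12.8 in P19 and 15.8 to 17.7 in 3T3.

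With the best-scoring 50% of each list, fewer peaks entered. All 3 lines held 41 regions, E14 with P19 89, E14 with 3T3 7, P19 with 3T3 3 and E14 alone 41. The stretch minus the rest was 0.536 percentile points in E14 and 5.46 in P19, and 172.8 bp of width in E14, 143.2 bp in P19 and 86.2 bp in 3T3. E14 lay above P19 in 9 windows, E14 above 3T3 in 5 and P19 above 3T3 in 4. For this setting no share over all regions or windows of the genome was computed, so these counts have no background. With lists of equal length, 3T3 alone held 83 regions (35.6%, against 26.6% of all regions) and all 3 lines 51 (21.9%, against 12.1%). E14 and P19 held 39 (16.7%, against 28.7%), E14 alone 15 (6.44%, against 9.85%) and P19 and 3T3 6 (2.58%, against 3.72%). 3T3 took part in 63.9%, against 47.6%. The percentile difference was 9.00 in E14 and turned to -0.057 in P19, and the width difference was 329.2 bp in E14 and 222.2 bp in P19. 3T3 lay above E14 in 13 windows and P19 above 3T3 in 2.

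With windows shifted by 50 kb, E14 and P19 each lay above 3T3 in 0 windows, and likewise over the first 21 windows, where E14 lay above P19 in 1. Shifted windows were counted only where they lay wholly inside the stretch, and no share over all shifted windows was computed. The cause of these changes was not tested.

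Leaving out each library in turn gave 95 to 131 regions of all 3 lines, 111 to 186 of E14 with P19, 7 to 24 of E14 with 3T3, 6 to 17 of P19 with 3T3, 35 to 190 of E14 alone, 18 to 100 of P19 alone and 29 to 73 of 3T3 alone. The share held by 3T3 was 28.5% to 53.2%. With a library left out, every peak of its partner counted as a region of that line, and no share over the genome was computed for these counts. Window calls then needed only the remaining library of that line, so window counts could only stay or rise. Windows numbered 4 to 11 for E14 above P19, 6 to 12 for P19 above E14, 1 to 2 for E14 above 3T3, 1 to 3 for P19 above 3T3, 21 to 23 for 3T3 above E14 and 18 to 21 for 3T3 above P19. Percentile differences were 1.91 to 2.27 in E14, 1.63 to 2.62 in P19 and -9.60 to -0.713 in 3T3, and width differences 57.0 to 139 bp, 68.0 to 77.5 bp and -21.0 to 15.5 bp. Read depth is unknown, so an absent peak may be a site below detection.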
